A study of Mus musculus with 2 samples.

Results

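The genes described here write, copy, remove and read DNA methylation: Dnmt1, Dnmt3a, Dnmt3b, Uhrf1, Hells, Tet1, Tet2, Tet3 and Mbd2. They were chosen by function, with earlier results of these data known. Every probe set that the platform annotation ties to 1 of these symbols and to no other was included, which gave 24 of the 45101 probe sets on the array and 9 of 18194 named genes. RNA came from pooled lenses of wild-type mice of the strain labelled C57/BL6 at postnatal day 60 (P60), the young adult, and at postnatal day 7 (P7), when the lens grows fast. Each age was 1 pool on 1 array. The sources used here give neither the number of animals and eyes in a pool nor their sex. Age, pool and hybridisation therefore cannot be told apart, and differences are given by size with no test and no error between animals.

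Methyl groups on cytosine in CpG pairs are set down on unmethylated DNA by the de novo enzymes DNMT3A and DNMT3B. DNMT1 copies the pattern onto the new strand after replication, guided by UHRF1, which binds half-methylated CpG, and helped by HELLS, a SNF2-family chromatin remodeller. TET enzymes oxidise methylcytosine and so start its removal, and MBD2 binds methylated CpG and brings in the NuRD deacetylase complex. In the lens, cells divide in the anterior epithelium, and fibre cells leave the cell cycle and finally lose their nuclei.

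Probe-set signals are MAS5 intensities, which combine perfect-match and mismatch probes into a linear value with arbitrary units. The floor for low signals was 103.9, which is the median over all signals of the P60 and P7 arrays. Signals under it were raised to it before log2 ratios of P60 over P7 were taken, so that such a ratio is a bound. Of the 24 probe sets, 16 were above the floor at both ages, 5 at P7 only and 1 at P60 only, and 2 were under it at both ages. As a guide to measurement error, the log2 ratios of probe sets of the same gene had a pooled SD of 0.58 over 4239 genes. Only probe sets above the floor at both ages entered this SD, so it does not cover those under it at 1 age. It also does not cover the spread from animal to animal, pool to pool or array to array.

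All 9 marker genes of the lens, among them Cryaa, Mip and Pax6, were above the floor at both ages. Of the 9, Foxe3, a transcription factor gene of the lens epithelium, passed 2-fold, with 110.5 at P60 and 288 at P7 (-1.38). The 5′/3′ signal ratio of control probe sets, which falls when RNA or its copies are incomplete, was 0.606 at P60 and 0.785 at P7 for beta-actin, 1.29 at P60 and 1.39 at P7 for Gapdh, 0.0262 at P60 and 0.0995 at P7 for the dap spike-in, and 0.833 at P60 and 1.502 at P7 for the lys spike-in. These ratios used signals without the floor, and the spike-ins are not lens RNA. The 5′/3′ ratio was lower at P60 for all 4. The part of this difference in the ratios of the probe sets below was not tested.

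Promoter stretches are shown for Uhrf1, Hells and Dnmt1, the maintenance genes, because they hold E2F-type motifs, and E2F factors are known to drive genes of S phase. The windows, from RefSeq on GRCm38.p6, run from 250 bases before to 50 bases after each annotated start. Windows were at hand for 8 of the 9 genes. Searched on both strands were TTTCCCGC, TTTCGCGC, TTTGCCGC and TTTGGCGC. The stretches below are 60 bases long, 5′ to 3′ on the gene's strand, with the motif in capitals. In Dnmt1 the capitals are TTTCGCGC as read on the opposite strand.
Uhrf1, chr17:56304102-56304161, plus strand: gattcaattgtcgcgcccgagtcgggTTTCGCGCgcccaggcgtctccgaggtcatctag
Hells, chr19:38930902-38930961, plus strand: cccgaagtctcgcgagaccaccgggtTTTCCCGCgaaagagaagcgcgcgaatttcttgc
Dnmt1, chr9:20952809-20952868, minus strand: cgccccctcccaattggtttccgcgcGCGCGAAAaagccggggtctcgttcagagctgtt

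With the start at position 0, the motif began at -185 in Uhrf1, at -62 in Hells and at -219 in Dnmt1. Dnmt1 held another, TTTGGCGC, at 33 in the same window, and no hits overlapped. Of 32851 windows of this length 744 (2.26%) held at least 1 of the 4 motifs, as did 3 of the 13 windows of these genes. Each of the 4 motifs contains a CpG, and that share was not matched for CpG count, so the comparison is description only. The windows of Dnmt3a, Dnmt3b, Tet1, Tet2 and Tet3 held none of these letters. Counted by gene, 704 of 27025 held one in at least 1 window, as did 8 of 19 replication fork genes, 1 of 11 mitotic genes, 2 of 15 germline genes and 1 of 10 other methylation factors from the lists described below. In the other 4 lists no gene held one. All 8 genes with a window had at least 1 with more CpG pairs than the median window, which had 7. The highest count was 57 in Tet2, followed by 47 in Dnmt3a, 34 in Hells, 33 in Uhrf1 and in Dnmt1, 30 in Dnmt3b, 22 in Tet3 and 17 in Tet1. A motif or a CpG count describes the sequence and was not tied to the signals by any test.

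Of the 9 genes, each taken by its brightest probe set, Mbd2 was more than 2-fold higher at P60 and Uhrf1 more than 2-fold lower. For the other 7 the floored ratio stayed below 2-fold. Among these, Dnmt3b and Tet3 were under the floor at 1 age, and their bounds could not have reached 2-fold. Among all 13029 measured genes the share past 2-fold was 11.5% for higher and 9.44% for lower signal at P60. Counts of 1 of 9 in each direction are near that background. The median log2 ratio was 0.41 over the 9 genes and 0.02 over all measured genes, and over the 22 measured probe sets of the 9 genes it was -0.08. The sign of the members' median thus depends on how probe sets are combined.

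**Figure D1:**
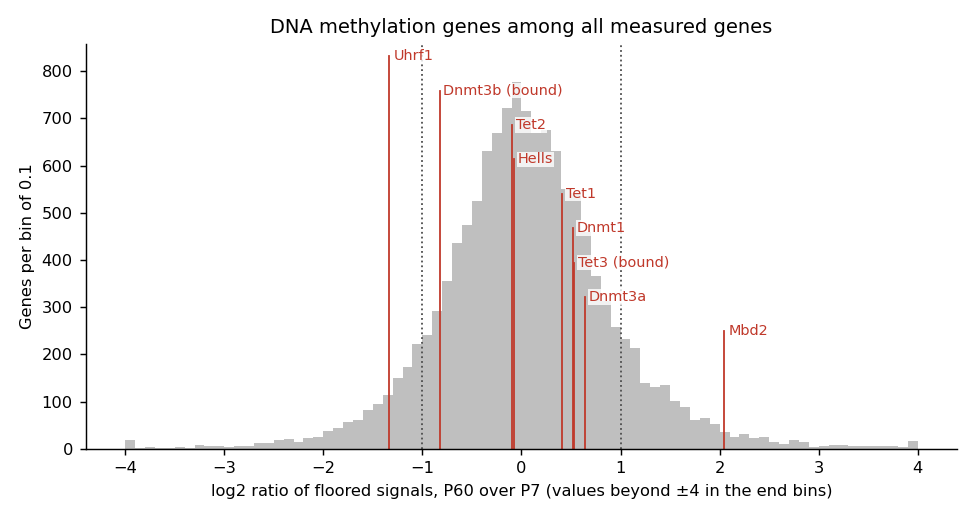
Histogram of the log2 ratio of floored signals, P60 over P7, for all 13029 measured genes (grey, genes per bin), with the 9 DNA methylation genes as red lines whose height carries no value. Mbd2 at 2.05 and Uhrf1 at -1.33 lie outside the dotted 2-fold lines, and the other 7 lie between them. Dnmt3b and Tet3, marked as bounds, could not have passed these lines.

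The methyl-CpG reader Mbd2 showed the largest ratio of the 9 genes. Its probe set 1417165_at read 5136 at P60 and 1244 at P7, which is 4.13-fold higher. Its other probe set, 1425803_a_at, which matches several transcripts of the gene, read 440 at P60 and 258 at P7, which is 1.71-fold higher. Both probe sets were above the floor at both ages and both were higher at P60, although their log2 ratios of 2.05 and 0.77 lie 1.28 apart. They were designed on different source sequences. Of the 13029 measured genes, 250 (1.92%) had a ratio as high as that of the brighter probe set.

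The maintenance factor Uhrf1 had both probe sets lower at P60. Probe set 1415810_at read 117 at P60 and 296 at P7, which is 2.52-fold lower, and the P60 value is just above the floor. Probe set 1415811_at read 5.97 at P60, under the floor, and 147 at P7, which is at least 1.41-fold lower. Both were designed on 1 source sequence, so they are not independent of each other. Of all measured genes 640 (4.91%) had a ratio as low as -1.33. With the floor times 2 the P60 value of 1415810_at was under it and the P7 value less than 2-fold above it. The ratio was then a bound of -0.51, which could not have reached 2-fold.

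Hells, the remodeller, had no probe set above 0, but the sizes differed. The brightest, 1430139_at, read 231 at P60 and 243 at P7, a log2 ratio of -0.08. Probe set 1417541_at read 134 at P60 and 248 at P7, which is 1.85-fold lower. Probe set 1453361_at read 6.16 at P60 and 104.1 at P7, so that its P7 value lies at the floor and its bound is close to 0. The 3 were designed on different source sequences.

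The maintenance enzyme Dnmt1 had probe sets on both sides of 0. Probe set 1435122_x_at read 1149 at P60 and 802 at P7, a log2 ratio of 0.52. Probe set 1447877_x_at read 420 at P60 and 352 at P7, a log2 ratio of 0.26. The suffix x marks probe sets in which some probes may also match other sequences. The remaining one, 1422946_a_at, read 842 at P60 and 1045 at P7, a log2 ratio of -0.31. All 3 ratios are smaller than that SD of 0.58, and they do not settle a direction for Dnmt1.

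**Figure D2:**
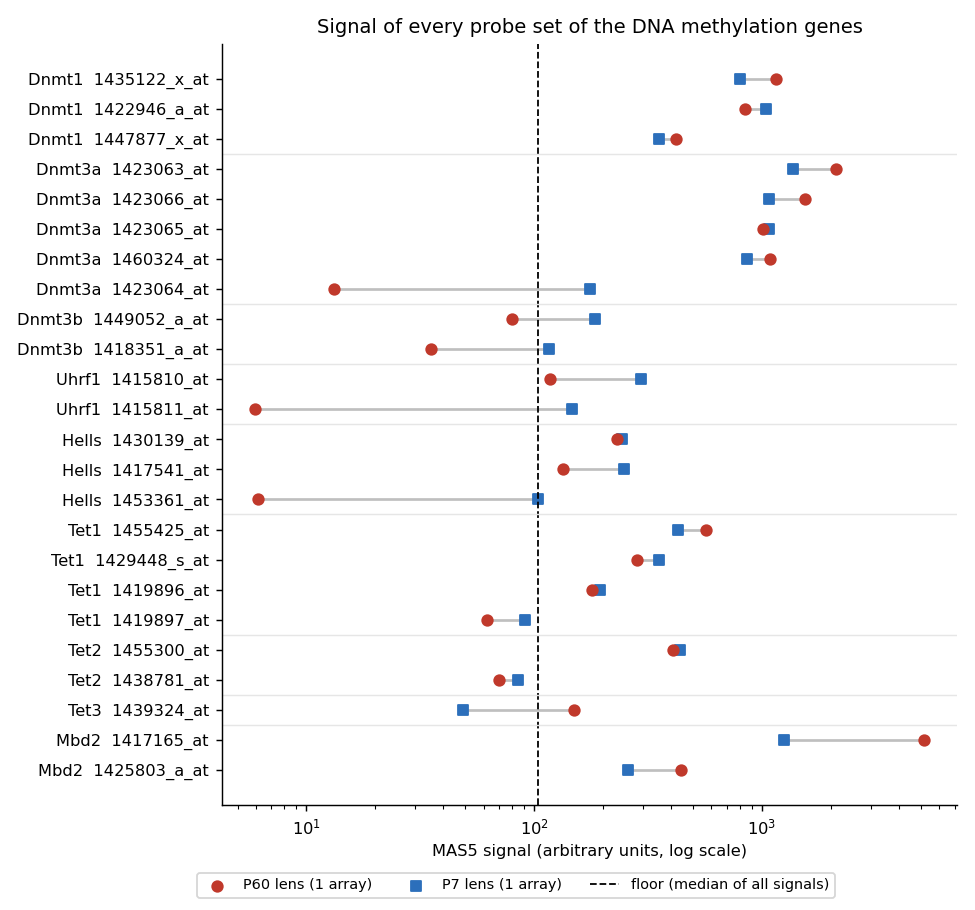
MAS5 signal (arbitrary units, log axis) of all 24 probe sets on the P60 array (red circles) and the P7 array (blue squares), with the floor of 103.9 as a dashed line. Mbd2 1417165_at has the widest gap among probe sets above the floor at both ages, and the lowest P60 signals belong to Uhrf1 1415811_at, Hells 1453361_at and Dnmt3a 1423064_at.

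The de novo enzymes Dnmt3a and Dnmt3b differed in where they stood against the floor. Dnmt3a had 4 of 5 probe sets above the floor at both ages. The brightest, 1423063_at, read 2122 at P60 and 1362 at P7, which is 1.56-fold higher. Probe set 1423066_at read 1544 at P60 and 1074 at P7, a log2 ratio of 0.52, and 1460324_at read 1082 at P60 and 862 at P7, a log2 ratio of 0.33. Probe set 1423065_at read 1010 at P60 and 1072 at P7, a log2 ratio of -0.09. The last, 1423064_at, went the other way and read 13.3 at P60, under the floor, and 177 at P7, which is at least 1.70-fold lower. All 5 carry the same source accession, so the disagreement lies between probe sets designed on 1 sequence.

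Dnmt3b was above the floor at P7 only. Probe set 1449052_a_at read 80.3 at P60, under the floor, and 184 at P7, which is at least 1.77-fold lower. Probe set 1418351_a_at read 35.1 at P60 and 116 at P7, at least 1.12-fold lower. Both P7 values were less than 2-fold above the floor, so neither bound could have reached 2-fold. With the floor times 0.5 both signals of the brighter probe set were above it, and its log2 ratio was -1.20, past 2-fold.

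Among the Tet genes, which encode the oxidising enzymes, none reached 2-fold. Tet1 was read by 3 measured probe sets. Probe set 1455425_at read 565 at P60 and 426 at P7, a log2 ratio of 0.41, whereas 1429448_s_at, which may match several transcripts, read 284 at P60 and 352 at P7, a ratio of -0.31. Probe set 1419896_at read 179 at P60 and 195 at P7, a ratio of -0.12. These 3 lie on both sides of 0 and within the SD between probe sets. The fourth, 1419897_at, was under the floor at both ages, with 62.0 at P60 and 91.0 at P7.

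Tet2 had 1 measured probe set. It was 1455300_at, with 407 at P60 and 436 at P7, a log2 ratio of -0.10. Its other, 1438781_at, was under the floor at both ages with 70.3 at P60 and 84.9 at P7. Tet3 rests on 1 probe set, 1439324_at, which read 150 at P60 and 48.5 at P7, under the floor. It was thus above the floor at P60 only, and at least 1.45-fold higher. The P60 value was less than 2-fold above the floor, so this bound could not have reached 2-fold either. With the floor times 0.5 it was 1.53, past 2-fold.

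**Figure D3:**
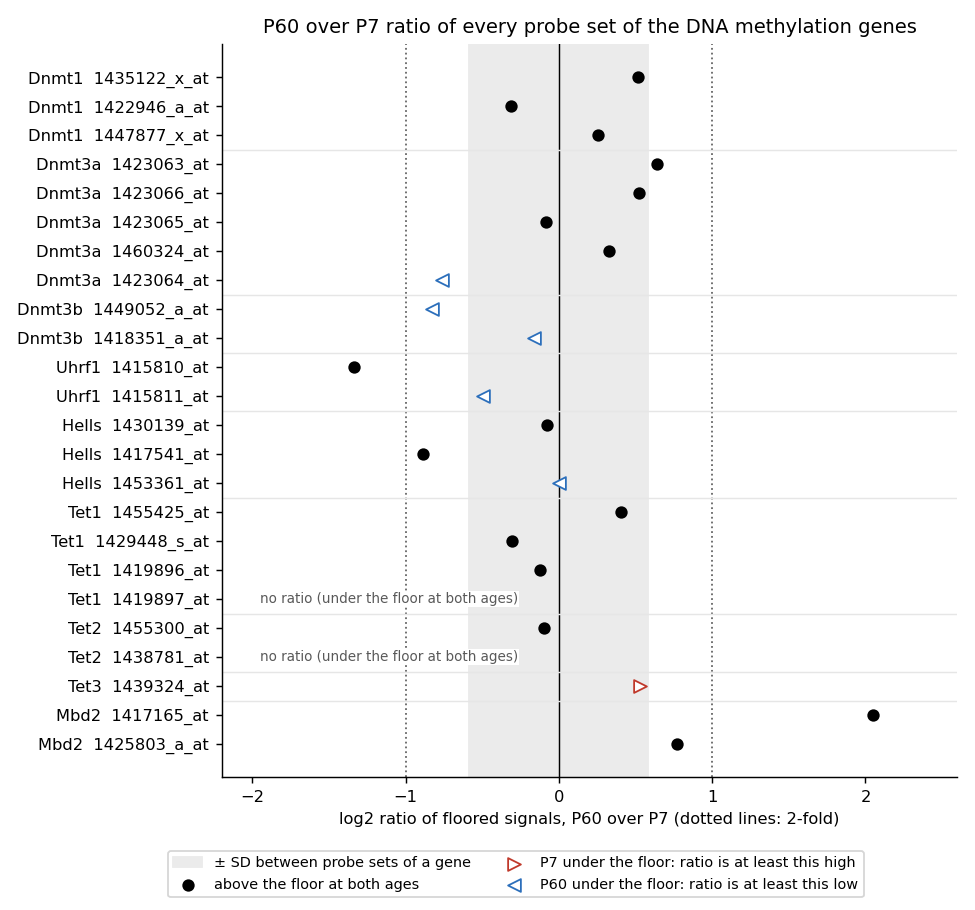
Log2 ratio of floored signals, P60 over P7, of each probe set; filled points were above the floor at both ages and open triangles are bounds that point towards the true ratio. Only Mbd2 1417165_at at 2.05 and Uhrf1 1415810_at at -1.33 lie beyond the dotted 2-fold lines, and the grey band is the SD of 0.58 between probe sets of a gene.

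Past 2-fold at P60 were 1 higher and 1 lower of the 22 measured probe sets, against 9.89% higher and 10.6% lower of all 22462 measured probe sets with 1 gene symbol. The 5 above the floor at P7 only and the 1 at P60 only could not have passed 2-fold. Their higher signal was less than 2-fold above the floor. Of the 16 above the floor at both ages, 1 was higher and 1 lower. Among all 17259 such probe sets with 1 gene symbol, 1809 were higher and 1649 lower. Of the 7 genes with more than 1 measured probe set, Dnmt1, Dnmt3a and Tet1 had ratios on both sides of 0. Over the array 2589 of 5624 such genes (46.0%) did. The median distance between the highest and the lowest ratio of a gene was 0.84 for these 7 genes and 0.74 for all 5624. No test was made of that difference.

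Genes that work with the members were described from lists chosen by function, with earlier results of these data known. Their counts are therefore description only and no test of the lists. Beside each count stand the 11.5% higher and 9.44% lower among all measured genes, and beside the median 0.02. Of 9 other measured methylation factors none reached 2-fold in either direction (median 0.00). The highest was Zbtb24, a zinc finger gene mutated in a human immunodeficiency with centromere instability, as is HELLS, at 610 at P60 and 372 at P7 (0.71). The lowest was Pcna, the sliding clamp that DNMT1 binds at replication forks, at 3435 at P60 and 5193 at P7 (-0.60).

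Of 12 measured genes of demethylation, repair and cofactor supply 2 passed 2-fold, both lower at P60 (median -0.30). Gadd45g, a stress-inducible gene linked to DNA repair and demethylation, read 551 at P60 and 3078 at P7, which is 5.58-fold lower. Its relative Gadd45b read 2380 at P60 and 9244 at P7, which is 3.88-fold lower, with its 3 probe sets from -1.96 to -0.78. The highest was Ogt, whose product adds sugar to proteins and binds TET enzymes, at 0.60, with its 5 probe sets from -1.15 to 0.91.

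Among the 12 measured genes listed for other readers of CpG or methyl-CpG and their partners, 1 was higher and 1 lower (median 0.05). Zbtb4, a zinc finger reader, read 2715 at P60 and 858 at P7, which is 3.17-fold higher, with its 4 probe sets from -1.01 to 1.66. Zbtb38, of the same family, read 419 at P60 and 1037 at P7, which is 2.48-fold lower, with its 3 probe sets from -1.31 to 0.57. For both genes the probe sets lie on both sides of 0.

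The NuRD complex that MBD2 recruits was read by all 12 listed subunit genes. By the brightest probe set 1 passed 2-fold, on the higher side (median 0.21). Mta3, a scaffold subunit, read 1119 at P60 and 379 at P7, which is 2.96-fold higher, with its 3 probe sets from -0.11 to 1.56. Gatad2a, the subunit family that bridges MBD proteins to the remodeller, was the lowest at 4952 at P60 and 8968 at P7 (-0.86), and its 5 probe sets ran from -1.39 to -0.53. Rbbp4 was nearly level by its brightest probe set (-0.06), but its 4 probe sets ran from -2.49 to -0.06. Its count as unchanged thus depends on the probe set.

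Methyl groups come from S-adenosylmethionine, and 2 of 12 measured genes listed for that supply passed 2-fold, both higher at P60 (median 0.37). Ahcyl2, which resembles the hydrolase that clears the spent donor, read 6230 at P60 and 1554 at P7, which is 4.01-fold higher, with its 3 probe sets from 0.41 to 2.003. The gene of that hydrolase itself, Ahcy, read 1835 at P60 and 1638 at P7 (0.16). Whether Ahcyl2 acts in donor supply was not tested. Shmt2, a mitochondrial enzyme of serine and folate metabolism, read 3252 at P60 and 1059 at P7, which is 3.07-fold higher, with its 4 probe sets from 0.23 to 1.62. The lowest was Mat2b, a subunit of the donor's synthase, at 665 at P60 and 998 at P7 (-0.58).

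Dnmt1, Uhrf1 and Hells act at or after replication, so genes of dividing cells were set beside them. Of 20 measured genes listed as replication fork genes 4 passed 2-fold, all lower at P60 (median -0.34). The list also holds genes of nucleotide supply such as Tk1. Those past 2-fold were Tk1 (at least 4.07-fold), Fen1 (3.51-fold), Gins2 (2.91-fold) and Mcm3 (2.36-fold, with its 4 probe sets from -1.24 to 0.42). The 2 probe sets of Fen1 ran from -1.81 to -0.48, and the 2 of Gins2 from -1.54 to -0.97. The highest was the ligase gene Lig1 at 0.61. Of 11 genes of mitosis 7 passed 2-fold, again all lower at P60 (median -1.63). Mki67, a marker of cycling cells, read 194 at P60 and 773 at P7, which is 3.99-fold lower, and Cdk1, the mitotic kinase, read 184 at P60 and 716 at P7, which is 3.89-fold lower. The others were Ccnb2, Ube2c, Kif11, Birc5 and Top2a, and the highest ratio of a brightest probe set was that of Plk1 at -0.29. The 3 probe sets of Kif11 ran from -1.97 to -0.24, and the 2 measured ones of Top2a from -1.53 to -0.14.

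Against these, the ratio of Uhrf1 (-1.33) lies among those of the mitotic genes, while the brightest probe sets of Hells (-0.08) and Dnmt1 (0.52) lie above all 11. Hells 1417541_at (-0.88) and Dnmt1 1422946_a_at (-0.31) lie among them. All of these ratios lie within the range of the listed replication fork genes, from -2.02 to 0.61, where -2.02 is the bound of Tk1. In RNA from whole lenses, fewer dividing cells and less RNA per cell cannot be told apart. The epithelial gene Foxe3 (-1.38) and markers of vascular endothelium were lower at P60, as was Uhrf1. The P60 signal of Foxe3, 110.5, was just above the floor. Pax6, another transcription factor gene among the lens markers, read 8581 at P60 and 5692 at P7 (0.59). Its 5 probe sets ran from -0.78 to 0.59. Of 7 measured endothelial markers 6 passed 2-fold, all lower at P60, their summed signal was 557 at P60 and 3323 at P7, and 1 was above the floor at P60 and all 7 at P7. The defining markers Pecam1 and Tie1 were under the floor at both ages. The part of vascular, epithelial or dividing cells in the Uhrf1 ratio was not tested. Of other cell types, 1 of 4 measured leukocyte markers (Fcer1g) and 2 of 5 measured pigment cell markers (Tyrp1 and Pmel) passed 2-fold, all lower at P60, with summed signals of 752 at P60 and 954 at P7 and of 923 at P60 and 1961 at P7. In these 3 lists no member passed 2-fold on the higher side. Of 5 measured retinal markers 1 was higher, Gnat1, and 2 lower, Pdc and Nrl, with a summed signal of 1766 at P60 and 2840 at P7. The 2 measured erythroid markers were under the floor at P60, with a summed signal of 24.9 at P60 and 352 at P7. The part of these cells in the Mbd2 ratio was not tested.

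**Figure D4:**
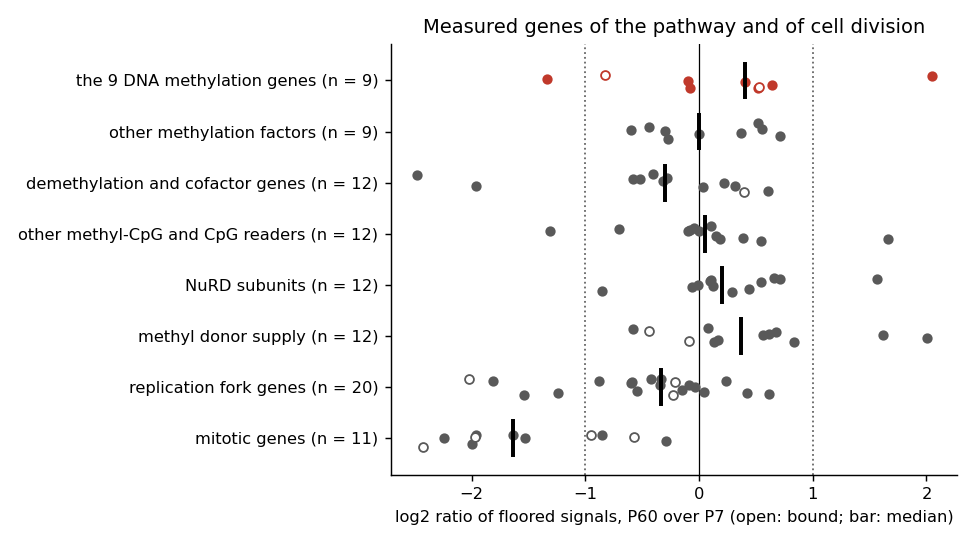
Log2 ratio of floored signals, P60 over P7, of each measured gene (brightest probe set) for the 9 DNA methylation genes (red) and for lists of genes that work with them; open points are bounds and black bars are medians. The mitotic genes have a median of -1.63 with all 11 below 0, and the 9 DNA methylation genes spread from -1.33 to 2.05.

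Germline genes known to be kept silent by DNA methylation in mouse somatic cells were listed as well. Of 15 such genes with a probe set of their own, 13 had their brightest probe set under the floor on both arrays, as did 5165 of all 18194 named genes (28.4%). Dpep3, a testis dipeptidase gene, read 7.93 at P60 and 176 at P7, at least 1.70-fold lower. Asz1, a gene of the germline piRNA pathway, read 150 at P60 and 100.3 at P7, at least 1.44-fold higher, with its other measured probe set at -0.03. Neither bound could have reached 2-fold, given how close the higher signal was to the floor. These are RNA signals, and DNA methylation itself was not measured.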

How the data were processed

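The authors deposited linear signal intensities for each probe set, made with MAS5 per the submitters' processing notes. The sources used here do not give its version, settings or detection calls. With 2% of probe sets trimmed at each end the mean was 500.0 on both arrays. Of 45101 probe sets, 34958 had 1 gene symbol in the platform annotation, 932 several and 9211 none; only the first were used, and 34754 of them matched a current gene number. From these intensities log2 ratios (P60 over P7) were computed above the floor, with the brightest probe set for each gene, in Python 3.11.15 with pandas 2.3.3. A gene counted as measured if that probe set was above the floor at either age. With 1 array per age there is no test, and the number of arrays limits the precision. Named are all members, and of each related list the genes past 2-fold plus its highest and lowest, with Ahcy added beside Ahcyl2. Rbbp4 was added for the spread of its probe sets. The members and lists were chosen with earlier results of these data known. The calculation was tested on simulated data. A planned description of the proteins was not analysed here.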

Additional observations from a re-analysis of the deposited data

How the results depend on the processing

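No paired analysis was possible because each age has 1 array. Scaling (centring or quantile normalisation) moved none of the counts below by over 1.5 times. Member genes higher at P60 numbered 1, but 2 with the floor times 0.5 or a pseudocount of 50 (Tet3 added), 2 at 1.5-fold (Dnmt3a added), and 0 with the dimmest probe sets. Member genes lower numbered 1, but 2 with the floor times 0.5 or at 1.5-fold (Dnmt3b added), and 0 with the floor times 2, the dimmest probe sets or the mean over probe sets. With the floor times 2 or the dimmest probe set, the Uhrf1 ratio was a bound that could not have reached 2-fold. The Uhrf1 mean over probe sets, -0.92, includes the bound of 1 probe set and is thus also a bound. Mbd2 had ratios from 0.77 to 2.05 and Uhrf1 from -1.39 to -0.50 over the settings, where -0.50 is a bound. Neither turned, but the probe sets of each share a sign, so the choice of probe set could not have turned them. Dnmt3a (-0.77 to 0.64) and Tet1 (-0.12 to 0.41) did turn with other probe sets. Over all genes, 2960 were higher and 2622 lower at 1.5-fold, and 1987 were lower with the floor times 0.5 and 806 with it times 2. At 1.5-fold the lists had 3 higher and 1 lower NuRD genes, 5 higher methyl donor genes, 1 higher demethylation gene, 1 higher and 1 lower other methylation factor, 2 lower readers, 1 higher and 7 lower replication genes and 1 lower germline gene. With the dimmest probe sets there were 0 higher and 1 lower NuRD genes, 1 higher methyl donor gene, 1 lower demethylation gene, 0 higher and 2 lower readers, 2 lower replication genes and a mitotic median of -0.90. With the mean over probe sets there were 0 higher and 1 lower NuRD genes, 1 higher methyl donor gene, 0 readers in either direction and a mitotic median of -0.95. Without suffixed probe sets 1 NuRD and 1 demethylation gene were lower, and Dnmt1 and Dnmt3b had no value. With the floor times 0.5 1 germline and 1 methyl donor gene were lower, and with the pseudocount 1 germline gene (list median -0.78). With the floor times 2 Dnmt3b and Tet3 were no longer measured. These shifts follow from which probe sets, floor or threshold were used, and signals near the floor are limited by background.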
